A study of Mus musculus with 32 samples.

Results

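The comparison is of mouse retina at postnatal day 6 (P6) in 2 genotypes, rd1 and wild type (wt). Its members are the 8 arrays whose titles give P6, 4 of each genotype, of 32 in the series. The wt group was homozygous for the wild-type allele, and the rd1 group was homozygous for the linked mutations retinal degeneration 1 and light ear (rd1/le), so that every rd1 array also carried light ear. Both groups had a C57BL/6 background, and each sample held 8 to 14 pooled retinas of pups at P6. The arrays of P4 and P8, 4 of each genotype and age with the same alleles and pooling, entered the fit and give the course of normal development. No source used here says whether the samples of a group came from separate litters, and p-values measure the spread between these samples only.

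Pde6b, the gene that rd1 disrupts, encodes a catalytic subunit of cGMP phosphodiesterase in rods, the enzyme that lowers cGMP in the phototransduction cascade. Without it cGMP rises in rods, which later die. In the first postnatal week of the mouse the last retinal progenitors leave the cell cycle, and they give rise mainly to rods, bipolar cells and Müller glia. Rods then make the proteins of the outer segment, and bipolar cells, the interneurons that carry signals from photoreceptors to ganglion cells, acquire their receptors. The question set to the arrays was which transcripts differ between rd1 and wt at P6, before rods are lost, and whether rd1 retina at P6 resembles a younger wt retina.

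RNA of each sample was hybridised to 1 Affymetrix MOE430A array, and levels are log2 signals of a probe set, a group of short probes for a transcript. Array medians lay between 6.54 and 6.76 over the series, and arrays of P6 correlated at 0.987 to 0.997 within wt and at 0.986 to 0.997 within rd1. Bacillus control probe sets, taken here as the range of background, read 1.75 to 4.89. The retinal markers Rcvrn, Gnat1, Crx, Nrl, Pax6, Rlbp1 and Thy1 had P6 group means of 8.29 to 13.44, above that range in both genotypes. The arrays of P6 differed in the spread of their values. The interquartile range was 5.26 to 5.36 on wt replicates 1 to 3 and 5.30 to 5.34 on rd1 replicates 1 and 2, and it was 5.09 on wt replicate 4 and 4.90 to 5.09 on rd1 replicates 3 and 4. The 3 arrays of narrow range also had the highest differences between the 3' and 5' actin control probe sets, a sign of RNA quality. These were 1.40 to 1.65 against 1.17 to 1.29 on the other arrays of P6. Other such controls did not single out the narrow arrays. For Gapdh the difference was 0.59 to 0.74 on them and 0.28 to 0.69 on the others. For the transferrin receptor it was 2.28 to 2.66 on them and 2.51 to 3.03 on the others. The part of RNA quality in the results was not tested, and values are given below within the 5 arrays of wide and the 3 arrays of narrow range.

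A linear model (limma) with 1 mean for each of the 6 groups compared rd1 with wt at P6 over 22626 probe sets, and a probe set was called at a Benjamini-Hochberg adjusted p under 0.05. At P6 26 probe sets were called, 0.115% of those tested, of which 10 were higher in rd1 (0.0442%) and 16 lower (0.0707%). They hold genes of mitosis and DNA synthesis on the higher side and genes of bipolar cells and rods on the lower side. At an unadjusted p under 0.05 there were 2016 (8.91%), 4.29% higher and 4.62% lower, and the 4 rd1 arrays did not overlap the 4 wt arrays at 1090 (4.82%). At a fold of 1.5 or more, with no test, 0.941% were higher and 1.14% lower. The median difference of all probe sets was 0.04. All 26 called probe sets kept their direction within the arrays of wide range and within the arrays of narrow range. The calls came from these same arrays, which favours a kept direction, so this does not test the part of array spread. Single arrays moved the count of calls. Among arrays of P6 it was 10, 16 and 41 without wt replicates 1, 2 and 4, and 14, 8 and 11 without rd1 replicates 1, 3 and 4. Among the other arrays it was 16, 43 and 16 without wt P4 replicates 2, 3 and 4, 17, 15 and 17 without wt P8 replicates 1, 2 and 3, 15 without rd1 P4 replicate 2, and 15 and 68 without rd1 P8 replicates 2 and 4. The 8 kept in each refit that left out an array of P6 were those of Pde6b, Rabac1, Ptpro, 2610524H06Rik, Ccnb1, Nusap1, Cenpf and Gabrr1. With the interquartile range of each array as a covariate, chosen after seeing the data, 14 of the 26 were kept. Calls were then lost on both sides, with limma adjusted p of 0.0600 and 0.0902 for Rrm1, 0.116 for Kif11, 0.0687 for Prph2, 0.0688 for Pcp2, 0.0914 for Vsx1, 0.0816 and 0.108 for Isl1, 0.102 for Camk1d, 0.108 for Syt9, 0.113 for Calml4 and 0.0816 for a probe set with no symbol. In bulk retina, fewer cells of a type and less RNA per cell cannot be told apart.

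Pde6b was lower in rd1 on each array. Its level was 13.33, 13.38, 13.31 and 13.30 on wt arrays of P6 and 10.52, 10.92, 10.68 and 10.65 on the rd1 arrays, so that the groups lay far apart. The difference was -2.64 (standard error 0.21, n = 4 arrays per group, limma adjusted p = 4.54e-07), a fold of 6.22. Rabac1, which encodes the prenylated Rab acceptor of vesicle traffic, was at 10.54, 10.90, 10.75 and 10.55 in wt and at 8.75, 9.10, 9.18 and 8.47 in rd1, again with no overlap (log2 difference -1.81, standard error 0.16, adjusted p = 2.13e-06). For both genes the difference had about the same size at P4 (-2.58 and -1.69) and at P8 (-2.35 and -1.53).

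A further 3 probe sets, those of Ptpro and 2610524H06Rik and 1 that matches both Entpd4b and Entpd4, were called at the 3 ages. Ptpro, a receptor-type tyrosine phosphatase, was at 9.88, 9.63, 9.63 and 9.53 in wt against 8.72, 8.57, 8.32 and 9.09 in rd1 (limma log2 difference -1.0, standard error 0.13, adjusted p = 0.000558). Its difference was -1.14 at P4 and -1.51 at P8, and its wt mean was nearly level, between 9.67 and 9.80 at the 3 ages. The transcript 2610524H06Rik, on chromosome 5 as is Pde6b, was higher in rd1, at 9.55, 9.64, 10.06 and 9.41 against 8.24, 8.45, 8.83 and 7.90 in wt (log2 difference 1.31, standard error 0.16, adjusted p = 0.000169). Its differences were 1.23 at P4 and 1.25 at P8. The probe set of Entpd4b and Entpd4 differed by -1.10 at P6, -1.04 at P4 and -0.98 at P8. Another probe set of both genes was called at P6 alone (-1.56), with differences of -0.83 at P4 and -0.93 at P8 (limma adjusted p = 0.999 and 0.173). Of the 26 called at P6, 5 were also called at P4, where 0.0398% of all probe sets were, and at P8, where 0.155% were, and 21 at neither age.

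**Figure D1:**
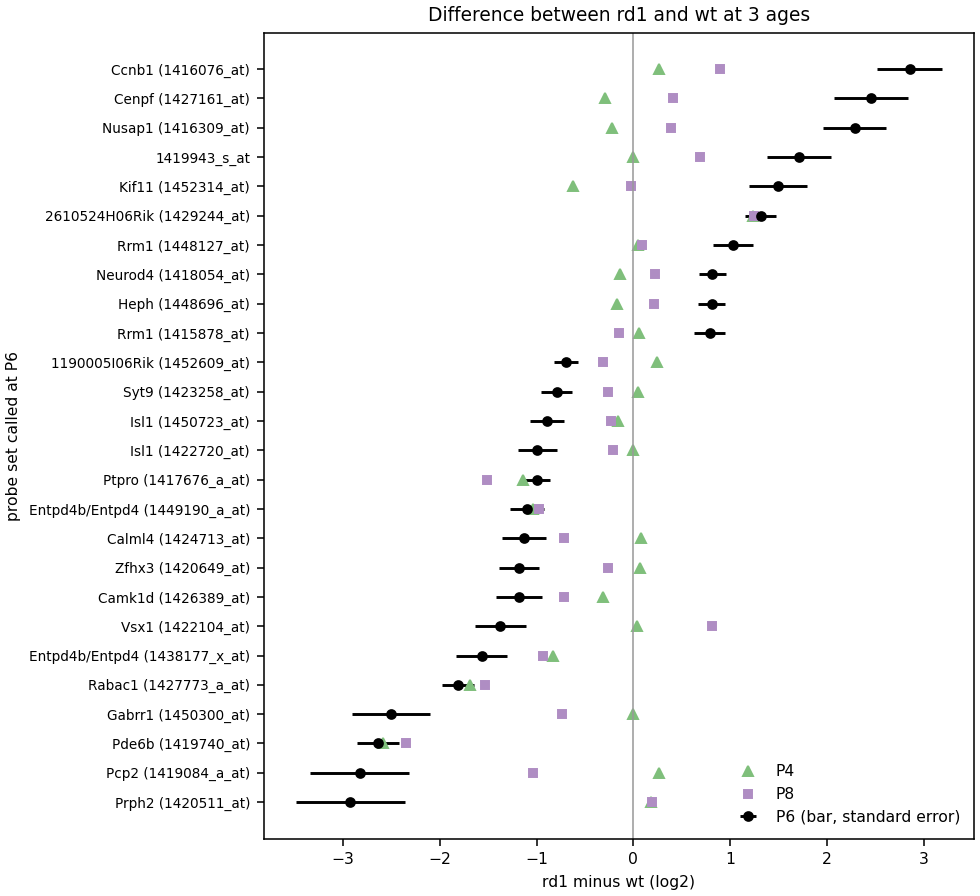
Difference between rd1 and wt (rd1 minus wt, log2) of the 26 probe sets called at P6 (circles, with limma's standard error), with their differences at P4 (triangles) and P8 (squares). Pde6b, Rabac1, Ptpro, 2610524H06Rik and the 2 probe sets of Entpd4b and Entpd4 lie on 1 side of 0 at the 3 ages. Ccnb1, Cenpf, Nusap1, Prph2 and Pcp2 stand out at P6, though Ccnb1 also lies above 0 at the 3 ages.

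The 4 called genes with the largest differences at P6 were Prph2, Ccnb1, Pcp2 and Pde6b, and the 250 bases before the most upstream start of each are shown because they include a gene of division beside genes of rods and bipolar cells. They are credited to RefSeq on GRCm38.p6: Prph2 chr17:46910228-46910477 on the plus strand, Ccnb1 chr13:100786487-100786736 on the minus strand, Pcp2 chr8:3625548-3625797 on the minus strand, and Pde6b chr5:108388123-108388372 on the plus strand. Capitals mark matches on either strand to the letters searched.
Prph2: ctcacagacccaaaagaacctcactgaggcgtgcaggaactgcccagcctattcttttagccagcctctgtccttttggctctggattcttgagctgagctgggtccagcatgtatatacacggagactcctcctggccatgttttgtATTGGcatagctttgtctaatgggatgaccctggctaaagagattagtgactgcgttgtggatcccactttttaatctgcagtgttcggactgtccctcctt
Ccnb1: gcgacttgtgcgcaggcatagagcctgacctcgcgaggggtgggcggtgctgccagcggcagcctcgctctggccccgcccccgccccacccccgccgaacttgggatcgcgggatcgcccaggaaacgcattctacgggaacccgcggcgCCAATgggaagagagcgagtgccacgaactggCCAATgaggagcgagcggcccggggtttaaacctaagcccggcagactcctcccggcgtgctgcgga
Pcp2: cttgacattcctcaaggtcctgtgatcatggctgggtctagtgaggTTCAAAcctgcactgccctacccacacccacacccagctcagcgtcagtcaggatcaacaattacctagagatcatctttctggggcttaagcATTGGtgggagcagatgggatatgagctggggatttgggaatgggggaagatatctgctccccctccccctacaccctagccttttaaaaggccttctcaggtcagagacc
Pde6b: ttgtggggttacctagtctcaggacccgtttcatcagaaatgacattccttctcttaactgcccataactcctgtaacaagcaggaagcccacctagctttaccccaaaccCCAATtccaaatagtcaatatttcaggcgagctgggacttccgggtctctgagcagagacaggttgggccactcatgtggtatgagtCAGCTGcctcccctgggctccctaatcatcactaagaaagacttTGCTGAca
The letters searched were the cell cycle genes homology region TTTGAA, the CCAAT box CCAAT, the CRX core TAATCC, the NRL response element core TGCTGA and the E-box CAGCTG; no capitals overlap between them here. Ccnb1 held the CCAAT box at 2 places, starting 99 and 67 bases before the start, and Prph2, Pcp2 and Pde6b each held it at 1 place. Pcp2 also held TTTGAA, and Pde6b held CAGCTG and TGCTGA, starting 52 and 8 bases before the start. Of 27025 genes with such a stretch, 34.5% held the CCAAT box, 16.3% TTTGAA, 6.37% TAATCC, 15.8% TGCTGA and 12.7% CAGCTG. Of the mitotic genes listed below 29 of 42 with a stretch held the CCAAT box (69%), and of the rod genes 11 of 25 held TAATCC (44%). The CCAAT box was in 41.2% of 17 bipolar genes and 40% of rod genes, and TAATCC in 23.5% of bipolar and 0% of mitotic genes. TTTGAA was in 29.4% of bipolar, 26.2% of mitotic and 8% of rod genes. None of the 4 stretches shown held TAATCC. A match describes letters only.

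The called genes of cell division were all higher in rd1 at P6. Ccnb1, the cyclin B1 that starts mitosis with its kinase, was at 2.40, 2.64, 3.01 and 2.94 in wt and at 6.00, 5.44, 5.85 and 5.11 in rd1. The groups were widely separated, and the wt arrays lay in the range of background, so that the fold rests on a wt signal near the floor (log2 difference 2.85, standard error 0.33, adjusted p = 0.000131, fold 7.22). Nusap1, a protein that bundles spindle microtubules, was at 3.94, 4.42, 4.27 and 5.58 in wt and at 7.05, 6.37, 7.26 and 6.69 in rd1 (log2 difference 2.29, standard error 0.33, adjusted p = 0.00178). Cenpf, a protein of the kinetochore, was at 4.41, 4.61, 5.11 and 4.92 in wt and at 7.53, 5.96, 8.19 and 7.20 in rd1 (log2 difference 2.45, standard error 0.38, adjusted p = 0.00527). Each rd1 array lay above each wt array for these genes on these probe sets. Another probe set of Nusap1 differed by 0.39 (limma adjusted p = 0.667) and another of Cenpf by 0.09 (limma adjusted p = 0.738). On both of these the group means of wt (4.47 and 2.02) and rd1 (4.86 and 2.11) lay in the range of background. On the called probe sets the wt means of Nusap1 and Cenpf, 4.55 and 4.76, also lay in the range of background. The size of the log2 differences of these 3 genes is therefore uncertain. At P8 the wt means of Ccnb1, Nusap1 and Cenpf were lower still, at 2.245, 2.889 and 3.503. At P4 their wt means had been 8.15, 9.13 and 9.83, and rd1 differed from wt by 0.27, -0.22 and -0.29.

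Of 49 genes measured on a list of the mitotic spindle and chromosome segregation, 2 were called, both higher (Nusap1 and Cenpf), and 47 did not pass. The difference was above 0 for 48, against 60.4% of all probe sets. For 25 the groups did not overlap with rd1 higher, which held for 2.32% of all probe sets. The median difference was 0.87 against 0.04 over 12403 genes. The kinesin Kif11, which pushes spindle poles apart, was called on a probe set other than its brightest, with a wt mean of 3.72 in the range of background (log2 difference 1.49, adjusted p = 0.0499), and its brightest differed by 1.16 (adjusted p = 0.148). Just outside the threshold were the kinetochore gene Nuf2 (log2 difference 1.43, adjusted p = 0.0539) and the spindle pole gene Aspm, with its wt mean of 4.41 in that range (log2 difference 1.68, adjusted p = 0.0577). The mean level of the list was 5.75, 5.78, 5.76 and 6.23 on wt arrays of P6 and 6.81, 6.41, 7.12 and 6.94 on the rd1 arrays. No rd1 array fell into the wt range. The list's median difference was 0.73 within the arrays of wide range and 0.78 within those of narrow range, and it was 0.06 at P4 and 0.27 at P8.

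Cyclins, their kinases and the regulators of these kinases numbered 30, of which 1 was called (Ccnb1). Of the 30, 24 had a difference above 0, against 60.4% of all probe sets, and the median was 0.32. Mki67, the marker of cycling cells, was at 6.15 ± 0.58 (SD) in wt and 8.46 ± 0.63 in rd1 (limma adjusted p = 0.0814), with no overlap. Ccna2, the cyclin of S phase and G2, was at 7.59 ± 0.21 and 8.77 ± 0.36 on its brightest probe set (adjusted p = 0.12). Of 37 DNA replication genes 1 was called, Rrm1, the large subunit of ribonucleotide reductase, and 34 were above 0 (median 0.26). Rrm1 was called on 2 probe sets. The brighter, ranked by its mean over the 24 arrays, was at 7.75, 8.03, 7.94 and 7.75 in wt and at 8.84, 8.95, 8.97 and 8.84 in rd1, with arrays of a genotype close together (log2 difference 1.03, standard error 0.21, adjusted p = 0.0499). Its adjusted p was over 0.05 in each of the 8 refits that left out an array of P6 (0.0761 to 0.22).

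**Figure D2:**
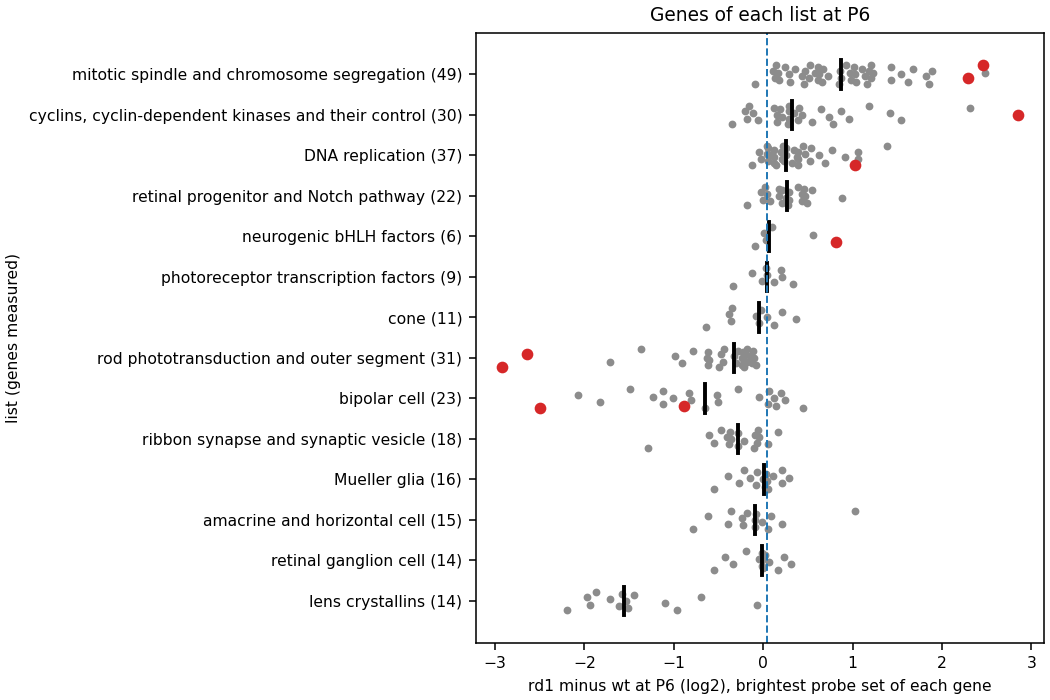
Difference between rd1 and wt at P6 (log2) of each gene of 14 lists, on its brightest probe set. Red points were called, the black bar is the list's median and the dashed line is the median of 12403 genes (0.04); the median of the mitotic genes (0.87) lies to the right of it and those of the bipolar (-0.65), rod (-0.33) and crystallin genes (-1.55) to the left.

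Genes of progenitors and of the Notch pathway, which holds progenitors undifferentiated, were not called (0 of 22). Of the 22, 19 were above 0, against 60.4% of all probe sets, and the median was 0.26. The Notch ligand Dll1 was at 8.44 ± 0.15 in wt and 9.32 ± 0.068 in rd1 (adjusted p = 0.126), with no overlap. At an unadjusted p under 0.05, 3 of the 22 were higher, against 4.29% of all probe sets. Among 6 neurogenic bHLH factors Neurod4, which takes part in making bipolar and amacrine cells, was called. It was at 11.91 ± 0.29 in wt, with no array above 12.30, and at 12.72 ± 0.23 in rd1, with no array below 12.44 (log2 difference 0.81, standard error 0.14, adjusted p = 0.0131). The rd1 arrays of P6 were thus nearer the wt mean of P4, 12.92, than that of P6. On a dimmer probe set Neurod4 differed by 0.24 (limma adjusted p = 0.624).

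The called genes of bipolar cells were all lower in rd1. Gabrr1, a subunit of the GABA receptor of bipolar cells, was at 8.54, 9.50, 8.75 and 7.07 in wt and at 5.78, 5.53, 6.05 and 6.49 in rd1. The lowest wt array, replicate 4, still lay above the highest rd1 array (log2 difference -2.50, standard error 0.40, adjusted p = 0.00841, fold 5.66). Pcp2, a protein of Purkinje cells and rod bipolar cells, was called on a dimmer probe set, at 6.55 ± 1.05 in wt and 3.73 ± 0.43 in rd1, where the lowest wt array was above the highest rd1 array (4.25) and rd1 lay in the range of background (log2 difference -2.83, standard error 0.51, adjusted p = 0.0205). On its brightest probe set it was at 9.59 ± 0.29 and 8.10 ± 0.21 (adjusted p = 0.0821). Isl1, a LIM homeodomain factor of bipolar, amacrine and ganglion cells, was called on its 2 probe sets (differences -0.89 and -0.99, adjusted p = 0.0499 each). On the brighter it was at 11.55, 11.44, 11.38 and 10.68 in wt and at 10.45, 10.67, 10.12 and 10.24 in rd1, so that wt replicate 4 and rd1 replicate 2 almost met. Vsx1, a homeodomain factor of cone bipolar cells, was called on a probe set other than its brightest, at 6.73, 6.54, 7.11 and 6.33 in wt and at 4.81, 6.01, 4.88 and 5.50 in rd1 (log2 difference -1.38, standard error 0.26, adjusted p = 0.0402), and differed by -1.83 on its brightest (adjusted p = 0.107).

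Of 23 bipolar cell genes 2 were called, Gabrr1 and Isl1, both lower. Those below 0 numbered 16, against 39.6% of all probe sets, and those above 0 numbered 7. For 9 the groups did not overlap with rd1 lower, against 2.49% of all probe sets. For 1 they did not overlap with rd1 higher, against 2.32%. Among those above 0 was Rgs16 (log2 difference 0.44, limma adjusted p = 0.244). The median difference of the list was -0.65. Bhlhe23, a bHLH factor that rod bipolar cells need to mature, was at 5.15, 5.54, 6.11 and 4.04 in wt and at 2.71, 4.44, 2.70 and 2.72 in rd1, so that rd1 replicate 2 lay among the wt values (adjusted p = 0.0675). The list's median difference was -0.67 within the arrays of wide range and -0.45 within those of narrow range. It was -0.04 at P4 and -0.17 at P8.

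Rod genes were below wt throughout their list, while few passed the test. Prph2, the peripherin of outer segment disc rims, was at 9.80, 10.53, 7.68 and 8.89 in wt and at 7.02, 5.77, 5.88 and 6.54 in rd1 (log2 difference -2.92, standard error 0.56, adjusted p = 0.0402, fold 7.59). Its wt level peaked at P6, with means of 5.23 at P4 and 6.85 at P8, and its rd1 level did not. Of 31 genes of rod phototransduction and the outer segment, 2 were called (Pde6b and Prph2), all 31 had a difference below 0 (39.6% of all probe sets; list median -0.33), and 11 did not overlap with rd1 lower (2.49% of all probe sets). Gnat1, the rod transducin, was at 10.05, 9.65, 9.57 and 9.38 in wt and at 8.46, 8.39, 8.33 and 8.00 in rd1, without overlap, and did not pass (log2 difference -1.37, standard error 0.58, adjusted p = 0.486). In a fit of the arrays of P6 alone it was called (limma adjusted p = 0.0298), and in no other alternative. Rcvrn, recoverin, was at 12.55 ± 0.18 and 11.56 ± 0.37 (adjusted p = 0.315). The list's median was -0.42 within the arrays of wide range and -0.27 within those of narrow range, where 5 of the 31 were above 0.

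As a list, the transcription factors of photoreceptors were not lower. None of 9 was called by limma or had an unadjusted p under 0.05, 6 were above 0, and the median was 0.04. In wt, though, this list changed little from P4 to P6 (median 0.02, against 1.18 for rod genes). For the 3 factors whose wt means of P4 and P6 differed by at least 0.5, the rd1 mean lay between them. Crx, a homeodomain factor of rods and cones, was at 13.01 ± 0.10 in wt and 12.99 ± 0.12 in rd1 (log2 difference -0.02, standard error 0.14), and Nrl, the factor that sets rod fate, at 13.44 ± 0.15 and 13.31 ± 0.11 (log2 difference -0.13, standard error 0.11). Of 11 cone genes none was called (median -0.05, 1 lower at an unadjusted p under 0.05, against 4.62% of all probe sets). Of 18 genes of the ribbon synapse and synaptic vesicles none was called by limma, 6 were lower at an unadjusted p under 0.05, as were 4.62% of all probe sets, and 16 were below 0 (median -0.28). Lists of Müller glia (16 genes), amacrine and horizontal cells (15) and ganglion cells (14) held no call by limma, had 0, 1 and 0 higher (4.29% of all probe sets) and 2, 3 and 1 lower (4.62%) at an unadjusted p under 0.05, and had medians of 0.01, -0.10 and -0.01.

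**Figure D3:**
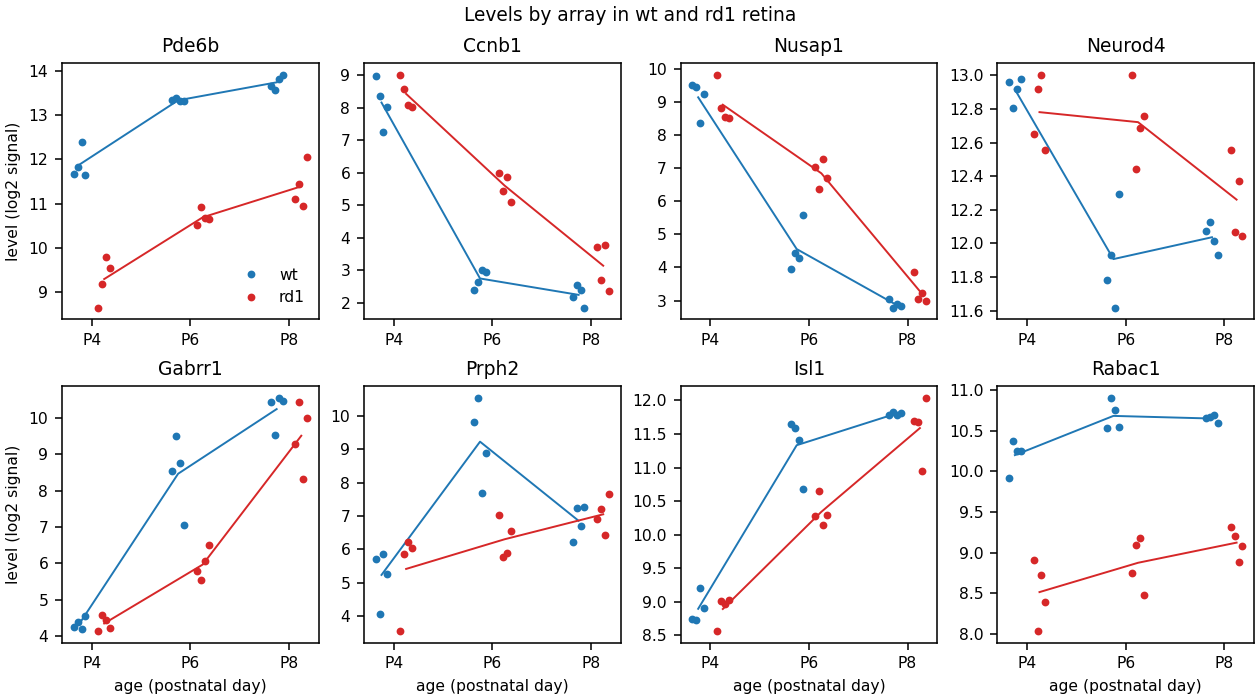
Levels (log2 signal) of 8 genes on each array of P4, P6 and P8 in wt (blue) and rd1 (red); lines join group means. At P6 Ccnb1, Nusap1 and Neurod4 are higher and Gabrr1, Prph2 and Isl1 lower in rd1, and at P4 and P8 these groups are closer together, while Pde6b and Rabac1 are apart at each age.

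Outside these lists, 7 further probe sets were called. Higher in rd1 were Heph, a copper-dependent ferroxidase (6.63 ± 0.19 in wt against 7.43 ± 0.24 in rd1, adjusted p = 0.0164), and a probe set that the annotation used here does not list (5.21 ± 0.51 and 6.92 ± 0.48, adjusted p = 0.042). Lower were Zfhx3, a zinc finger homeodomain factor (9.19 ± 0.25 and 8.01 ± 0.48, adjusted p = 0.0205), Camk1d, a calcium and calmodulin-dependent kinase (7.67 ± 0.32 and 6.48 ± 0.42, adjusted p = 0.0499), and Syt9, a synaptotagmin of vesicle release (9.14 ± 0.26 and 8.35 ± 0.17, adjusted p = 0.0499). Calml4, a calmodulin-like gene, was called with both groups in the range of background (4.28 ± 0.35 and 3.15 ± 0.42, adjusted p = 0.0499), and 1190005I06Rik, a transcript named to complete the calls after its values were seen, was at 8.26 ± 0.12 and 7.57 ± 0.18 (adjusted p = 0.0205). Called genes with further probe sets had 12 that were not called, and all 12 had the direction of the called one. Some of the 12 differed little, among them those of Nusap1, Cenpf and Neurod4 given above. For Zfhx3 the wt mean rose from 7.94 at P4 to 9.19 at P6 and was 7.98 at P8, and the rd1 mean stayed near the P4 level.

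The difference at P6 was then set against those at P4 and P8, which share no array with it. Over all probe sets, none passed limma's test of a difference between the ages, with a smallest adjusted p of 0.0671 for P8 (Vsx1) and 0.0743 for P4; 1146 and 1680 had an unadjusted p under 0.05 (5.06% and 7.43%). Of the 26 called at P6, 25 had a larger difference there than at P4 and at P8, Ptpro being the exception, but having been called at P6 favours that age. For Vsx1 rd1 was lower by 1.38 at P6 and higher by 0.82 at P8 (unadjusted p of the change 5.93e-06). For Ccnb1 the difference was 2.85 at P6 and 0.90 at P8 (limma unadjusted p = 0.000416, adjusted p = 0.449).

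Whether rd1 at P6 resembles a younger retina was asked by placing its mean between those of wt P4 (place 0) and wt P6 (place 1), where these differ by at least 0.5. Of the 26 called probe sets 21 have such a place. For 18 the rd1 mean lay between the wt means, for 3 it lay beyond wt P4 (Pde6b, Pcp2 and a probe set of Entpd4b and Entpd4), and for none beyond wt P6. For Pcp2 the means of rd1 P6 (3.725) and wt P4 (3.735) were nearly equal and in the range of background. The brightest probe set of Pcp2, which was not called, had a place of 0.21. The median place was 0.43, and those between ran from 0.060 for Zfhx3 and 0.19 for Neurod4 to 0.60 for Heph. Some called probe sets peaked in wt at P6, among them those of Zfhx3, Prph2 and Camk1d. Their wt means were 9.19, 9.22 and 7.67 at P6 and 7.98, 6.85 and 7.05 at P8. For these a low place does not tell a younger from an older retina. Over all probe sets with a place 2622 of 2967 lay between and the median was 0.66, so that lying between is common here. Since the wt P6 arrays enter both the call and the place, the count is a description. Against wt P4 itself, rd1 at P6 differed at 1479 probe sets (6.54%) and wt at P6 at 3028 (13.4%), 2 counts that share the wt P4 arrays. Their order is not stable: without rd1 P6 replicate 1 the count for rd1 P6 against wt P4 was 3301 and that for wt P6 against wt P4 was 3093. Without rd1 P6 replicates 3 and 4 the former was 908 and 865. Without wt P4 replicate 1 the counts were 658 and 2018, and without wt P4 replicate 2 the former was 784.

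By list, the median place was 0.48 for bipolar genes (17 with a place), 0.64 for mitotic genes (45), 0.69 for rod genes (30), 0.73 for DNA replication genes (30) and 0.77 for progenitor and Notch genes (20), against 0.65 over 1638 genes. The rd1 mean lay between those of wt P4 and wt P6 for the 45 mitotic and 30 replication genes with a place, and for 1483 of the 1638 genes.

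The change of wt from P4 to P8 uses no array of P6, and 29.4% of all probe sets changed over these days, 14.5% upward and 14.8% downward. Of 22 called probe sets that also changed over these days in wt, all 22 differed at P6 against the direction of that change. Of the 3291 probe sets that rose in wt from P4 to P8, 74.2% had a difference below 0 at P6, with a median of -0.13. Of the 3358 that fell, 68.8% had a difference above 0, with a median of 0.09. Over all probe sets 60.4% were above 0 and 39.6% below. Of the 15977 not called over these days in wt, 65.7% were above 0 and 34.3% below, with a median of 0.05. The share above 0 among those that fell was thus close to that of probe sets not called. Among those that rose the groups did not overlap with rd1 lower at 10.3%, and among those that fell with rd1 higher at 9.59%, against 2.49% and 2.32% of all probe sets. Among those not called over these days the shares were 1.21% with rd1 lower and 1.17% with rd1 higher.

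Each array was also given a single position on the line from the wt P4 mean (0) to the wt P8 mean (1) over all probe sets. The wt arrays of P6 were at 0.505, 0.570, 0.547 and 0.390 and the rd1 arrays at 0.348, 0.405, 0.254 and 0.267. The rd1 arrays thus lay nearer to wt P4, with an overlap of wt replicate 4 and rd1 replicate 2. The means were 0.503 ± 0.080 and 0.318 ± 0.071 (SD, n = 4), and the difference of -0.185 missed the threshold (two-sided exact permutation test, p = 0.0571, smallest possible 0.0286). Without wt P6 replicate 4 it was -0.223 and without wt P4 replicate 4 -0.185, each at the smallest p of 0.0286 in that test. Without wt P6 replicate 1, 2 or 3, or without rd1 P6 replicate 1, 3 or 4, the p of that test rose to 0.0857. On a straight line between wt P4 and wt P6 the rd1 mean corresponds to day 5.27 (single arrays 5.01 to 5.61). The difference was -0.165 within the 5 arrays of wide range and -0.130 within the 3 of narrow range. It was -0.170 without the genes of mitosis, cyclins and replication and -0.178 without those of rods, bipolar cells and photoreceptor factors. At P4 and P8 the rd1 arrays had mean positions of 0.034 ± 0.100 and 0.901 ± 0.120, where the wt arrays fix the line and no test was made.

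**Figure D4:**
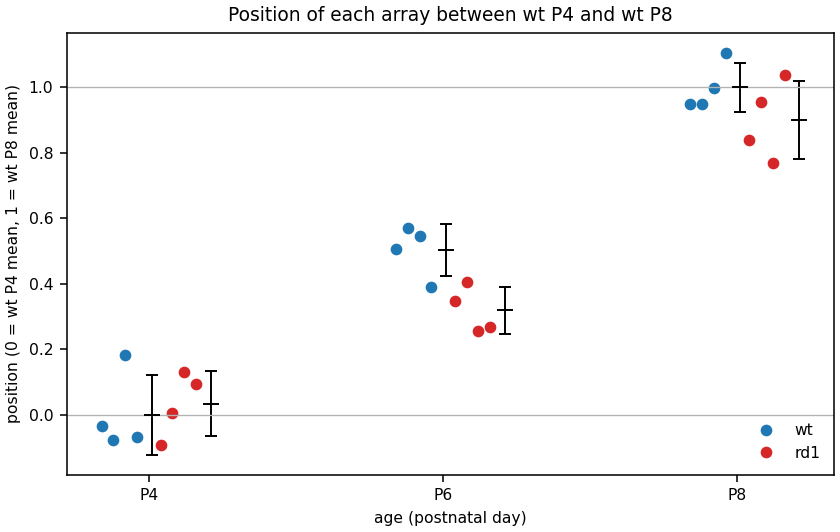
Position of each array on the line from the wt P4 mean (0) to the wt P8 mean (1), over all probe sets, in wt (blue) and rd1 (red); bars are mean ± SD of 4 arrays. At P6 the rd1 arrays (0.254 to 0.405) lie below 3 of the 4 wt arrays (0.390 to 0.570).

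Markers of tissue beside the retina were examined for the same arrays. The study also writes of retinal crystallins, so crystallins are not markers of lens alone. Of 14 lens crystallins none was called. At an unadjusted p under 0.05, 3 were lower, where 4.62% of all probe sets were lower and 4.29% higher. All 14 had differences below 0 (median -1.55), against 39.6% of all probe sets. By array at P6, crystallins averaged 7.52, 7.97, 6.26 and 6.63 in wt against 5.48, 5.54, 4.91 and 6.70 in rd1, so that rd1 replicate 4 lay within the wt range. The median difference of crystallins was -0.78 at P4 and, in the other direction, 0.89 at P8. Lens fibre genes other than crystallins (6 genes) had a median difference of 0.02, but averaged only 4.46 to 4.75 by array, in the range of background. Among them Tdrd7, with a wt mean of 11.55, differed by -0.67 (limma adjusted p = 0.401). With the crystallin mean as a covariate, chosen after seeing the data, 12 probe sets were called, 11 of them among the 26, including Pde6b, Rabac1, Ccnb1, Nusap1, Cenpf and Gabrr1. Lost on the lower side were among others Prph2, Pcp2, Vsx1 and Isl1 (limma adjusted p = 0.177, 0.0951, 0.0678 and 0.179), and on the higher side Neurod4, Rrm1, Kif11, Heph and the probe set with no symbol (0.0678, 0.179, 0.179, 0.0944 and 0.179). The part of lens tissue in the other results was not tested further. Lists of pigment epithelium (12 genes), red blood cells (5), microglia (14) and blood vessels (12) held no call by limma, with 1 blood vessel gene lower at an unadjusted p under 0.05, and had medians of -0.10 to 0.09. Of 16 scleral and muscle genes none was called by limma, and 2 were higher at an unadjusted p under 0.05 (4.29% of all probe sets). Those above 0 numbered 13 (60.4% of all probe sets), and the list's median was 0.16. Col1a2 was at 8.95 on rd1 replicate 2 while the other rd1 arrays lay between 4.96 and 5.67. Apoptosis genes (26) held no call and had a median of 0.08. At an unadjusted p under 0.05, 1 was higher and 1 lower (4.29% and 4.62% of all probe sets).

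**Figure D5:**
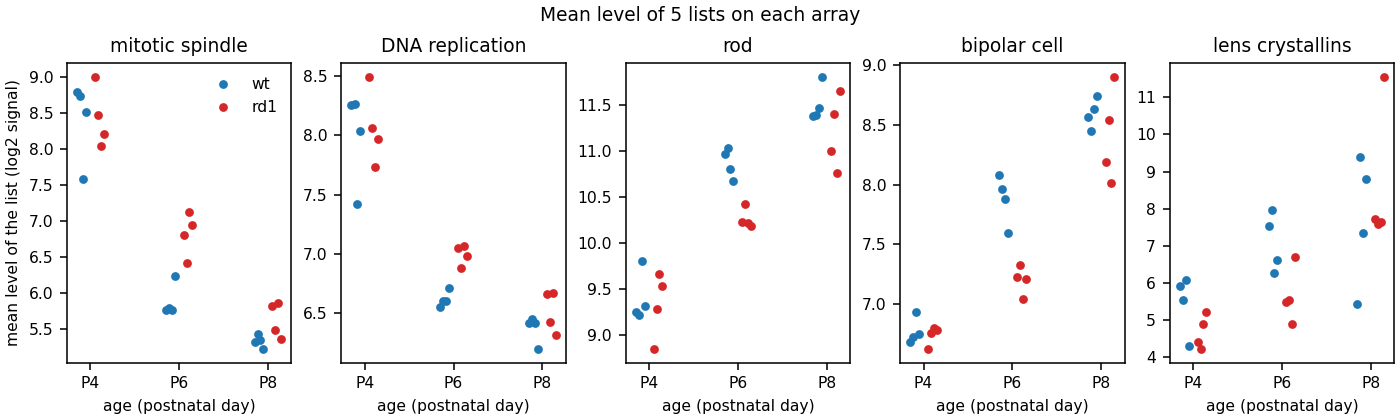
Mean level (log2 signal) of 5 lists on each array of P4, P6 and P8 in wt (blue) and rd1 (red). At P6 the mitotic and replication means are higher and the rod and bipolar means lower in rd1 without overlap, while crystallin means vary widely between arrays of a group (4.91 to 6.70 in rd1 at P6).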

How the data were processed

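Retinal RNA of wt and rd1 mice was measured on Affymetrix MOE430A arrays. The deposited values are log2 signals that the authors made with RMA (background correction, quantile normalization and median polish; no version is stated). The deposited table of average fold changes and false discovery rates holds the authors' own comparisons and was not used. After 64 control probe sets were left out, 22626 of 22690 remained. The platform annotation gave 1 symbol for 20380, several for 691 and none for 1555, of which 10, including that of Ccnb1, were named from the study's gene table; a gene on a list was read on its brightest of several probe sets. No detection calls were used, so a level near background is only a bound. The members and lists were chosen with earlier results of these data known.

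Arrays of P4, P6 and P8 (24 arrays, 6 group means, 18 residual degrees of freedom) were fitted in limma 3.58.1 (R 4.3.3) with an intensity trend, and the Benjamini-Hochberg adjustment ran over the 22626 probe sets; the script was tested on simulated data. Single values were compared by exact permutation over 70 assignments. Genes named are the 15 largest rises and falls among calls without overlap, Pde6b, Rabac1, genes the study lists at P6, up to 4 members of each list with the smallest p, and the 5 called probe sets at each end of the place scale; others named are cell type markers or were chosen after their values were seen. A gene of rods is not reported here. Alternatives were all 32 arrays, the arrays of P6 alone, robust or untrended variances, array weights, a block by replicate number, median centring, further quantile normalization, no dim probe sets, a fold criterion, gene means, and each array left out. Added after seeing the data were covariates for array spread and crystallins and fits without the 3 arrays of narrow range. The number of arrays limits the precision.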

Additional observations from a re-analysis of the deposited data

Results flagged for a closer look

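In groups of 4 arrays, a single array stood far from the other 3 in 13 of 244 groups of P6 examined (its gap to the nearest array, over the range of the 4, was above Dixon's critical value), where chance flags about 1 in 20. Among rd1 arrays, replicate 2 was the high one for Bhlhe23 (4.44, others 2.70 to 2.72) and Cabp4 (8.24, others 6.72 to 6.78) and the low one for Rrm2 (6.84, others 8.05 to 8.28). The array of rd1 replicate 1 was high for Rph3a (6.31, others 5.71 to 5.75) and low for Rxrg (7.22, others 7.48 to 7.52) and Nrl (13.15, others 13.35 to 13.38). Among wt arrays, replicate 4 was low for Tdrd7 (11.01, others 11.67 to 11.78) and Nefm (9.75, others 10.38 to 10.50) and high for Prdm1 (11.37, others no higher than 11.02). The wt replicate 2 array was high for Otx2 (13.20, others 13.12 to 13.13) and Cngb3 (8.21, others 7.59 to 7.65), wt replicate 1 was low for Myl1 (5.25, others 5.96 to 6.02), and wt replicate 3 was low for Tyrp1 (6.16, others no lower than 6.72). None of these genes was called at P6 on these probe sets. The cause of these values was not tested.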

How the results depend on the processing

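The 26 called probe sets and that of Gnat1 kept their direction under every alternative run for them, which other genes were not put through. The alternatives use the same arrays as the calls, which favours a kept direction. Pde6b and Ccnb1 were called under all 13 fits that changed a setting other than a left-out array. The counts of calls were less stable. Probe sets higher and lower at P6 (10 and 16) numbered 29 and 18 with all 32 arrays, 5 and 4 with the arrays of P6 alone, 6 and 10 with no intensity trend, 356 and 319 with array weights, 20 and 20 with median centring, 21 and 20 without the 30% dimmest probe sets, 1 and 2 with limma's treat against a fold of 1.5, 29 and 17 with gene means, and 213 and 259 by a fold of 1.5 with no test. They were 10 and 9 with the interquartile range as a covariate, 4 and 8 with the crystallin mean as a covariate, and 3 and 4 without the 3 arrays of narrow range, these being alternatives chosen after seeing the data. Leaving out each array gave 4 to 28 higher and 4 to 40 lower. The cause of these shifts was not tested, beyond the fewer arrays or genes that some fits hold.

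Replicate numbers did not pair the samples (correlations of same-numbered deviations -0.23, 0.46, -0.42 and 0.61), and a replicate block gave 22 higher and 20 lower, 1168 for wt P6 against wt P4 and 615 for rd1 P6 against wt P4. Without single arrays these last were 2018 to 3468 (3028 with all) and 658 to 3301 (1479 with all). Differences between P6 and P8 (0 called) numbered 5 with all 32 arrays, 2 with further quantile normalization and 0 to 7 without single arrays. Differences between P6 and P4 (0 called) numbered 4 with all 32 arrays, 12 without the dimmest probe sets and 0 to 5 without single arrays. The 18 probe sets lying between wt P4 and wt P6 became 40 with all 32 arrays, 30 without the dimmest, 303 at a fold of 1.5 and unadjusted p under 0.05, and 4 to 33 without single arrays. The difference in array position ran from -0.223 to -0.163 without single arrays (exact permutation p of 0.0286 to 0.0857). It was -0.190 over probe sets called between wt P8 and wt P4 (exact permutation p of 0.0286). On an axis from wt P4 to wt P6 it was -0.327, where the wt P6 arrays set the end of the axis and no test is read.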
